A study of Drosophila melanogaster with 6 samples.

Results

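The genes described are feeding-related neuropeptide receptors of the fly, taken by FlyBase symbol from a list of 10. Of these 10, 4 had values among the 11922 gene identifiers of the dataset, namely sNPF-R, CCKLR-17D1, CCKLR-17D3 and Lkr. The other 6 genes (NPFR, AstA-R1, AstA-R2, CCHa1-R, CCHa2-R and TkR99D) were not analysed here, so every count below is out of 4. mRNA was measured by RNAseq in heads and associated tissues of wild-type Oregon-R virgin female flies, 5 d old. HFD-fed flies received a medium with 20% coconut oil for 5 d and ND-fed flies received normal fly food, with the same WT genotype in both diets. There were 3 HFD samples and 3 ND samples, each of 25 flies.

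Neuropeptides of this kind are released by neurons and by endocrine cells of the gut, and act on G protein-coupled receptors on target neurons and peripheral tissues. In flies, sNPF signaling is known to promote feeding and to sensitize olfactory neurons in hungry animals, while the sulfakinin peptides made from Dsk are satiety signals related to the cholecystokinin of vertebrates. Leucokinin signaling through Lkr is known for the control of meal size, of water balance and of activity and sleep in relation to feeding state. Such receptors are typically made in few cells and at low mRNA levels.

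In BDGP6 coordinates, all 4 genes lie on the minus strand. sNPF-R (FBgn0036934), the receptor of short neuropeptide F, spans 3L:20058511-20089007 and has 2 annotated transcripts of 3243 and 4374 nt. Lkr (FBgn0035610), the leucokinin receptor, spans 3L:5512421-5529341 with 1 transcript of 2930 nt in 8 exons. The 2 sulfakinin receptor genes are neighbors on the X chromosome. CCKLR-17D1 (FBgn0259231) spans X:18707494-18726572, with 1 transcript of 3192 nt in 6 exons, and CCKLR-17D3 (FBgn0030954) spans X:18764483-18774027, with 1 transcript of 2230 nt in 5 exons. The gap between them is 37910 nt and holds 2 protein-coding genes. CCKLR-17D1 overlaps Cyp308a1 on the opposite strand and CG42302 on the same strand, with 0 shared exon bases in either case, and no annotated gene overlaps the other 3 receptors.

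Levels are given in FPKM, a number of fragments scaled to exon length and library size, so that levels of different genes can be compared per length. The total number of fragments was estimated from the steps between low FPKM values at 8.93, 5.34 and 11.85 M for HFD replicates 1, 2 and 3, and at 9.58, 8.16 and 10.31 M for ND replicates 1, 2 and 3. Photoreceptor markers were high in every library, with the 10 listed genes summing to between 16949 and 19649 FPKM in HFD samples and between 15451 and 21719 FPKM in ND samples. Midgut markers were also present. The 18 with values, of 19 listed, summed to 16431, 7510 and 22928 FPKM in HFD samples, against 24118, 25506 and 74.0 FPKM in ND samples. ND replicate 3 had the lowest value of the 6 samples for all 18 genes (tied at 0 for zetaTry), and 7 of them, epsilonTry and Jon65Aiv among them, were listed at 0 there. In correlations of log2 values over all genes tested, ND replicate 3 (Pearson's r of 0.842 to 0.920 with the rest) and HFD replicate 2 (at most 0.954) stood apart from the other samples. The log2 differences of the receptors were also computed without them.

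sNPF-R was the most abundant of the 4 receptors. Its mRNA level was 7.02, 8.39 and 6.50 FPKM in HFD samples and 6.11, 6.02 and 8.56 FPKM in ND samples. The 2 highest values came from ND replicate 3 and HFD replicate 2, and the diets overlapped. The mean was 7.30 ± 0.980 FPKM in HFD-fed flies and 6.90 ± 1.44 FPKM in ND-fed flies (SD, n = 3 each). An estimated 145 to 386 fragments per sample lie behind these values.

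CCKLR-17D1 ranked next. It was at 5.14, 5.84 and 5.06 FPKM in HFD samples, against 4.85, 4.16 and 6.44 FPKM in ND samples. Again HFD replicate 2 was the highest of its diet and ND replicate 3 the highest of all, and the 3 HFD values lay inside the range of the ND values. Means were 5.35 ± 0.427 FPKM for HFD and 5.15 ± 1.17 FPKM for ND (SD, n = 3 each).

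CCKLR-17D3 was lower than its neighbor in every sample. Its level was 3.22, 3.17 and 3.36 FPKM in HFD samples, against 3.70, 3.04 and 4.29 FPKM in ND samples. The HFD values lay close together and inside the ND range, and HFD replicate 2 was not raised, in contrast to sNPF-R and CCKLR-17D1. Means were 3.25 ± 0.102 FPKM for HFD and 3.68 ± 0.625 FPKM for ND (SD, n = 3 each). The coefficient of variation was 3.15% among HFD samples and 16.99% among ND samples, while the counting error expected from the estimated fragments averaged 12.4%.

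Lkr had the lowest level and was the only receptor of the 4 whose diets did not overlap. It was at 1.10, 1.02 and 1.27 FPKM in HFD samples, against 0.746, 0.918 and 0.991 FPKM in ND samples. Means were 1.13 ± 0.125 FPKM for HFD and 0.885 ± 0.126 FPKM for ND (SD, n = 3 each), a ratio of 1.28. These levels rest on few fragments, estimated at 28.8, 15.96 and 43.9 in HFD samples and 20.9, 21.9 and 29.9 in ND samples. The higher mean in HFD-fed flies amounted to 27.5%, and the counting error of the ratio, taken over all estimated fragments of each diet, was 15.8%.

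**Figure D1:**
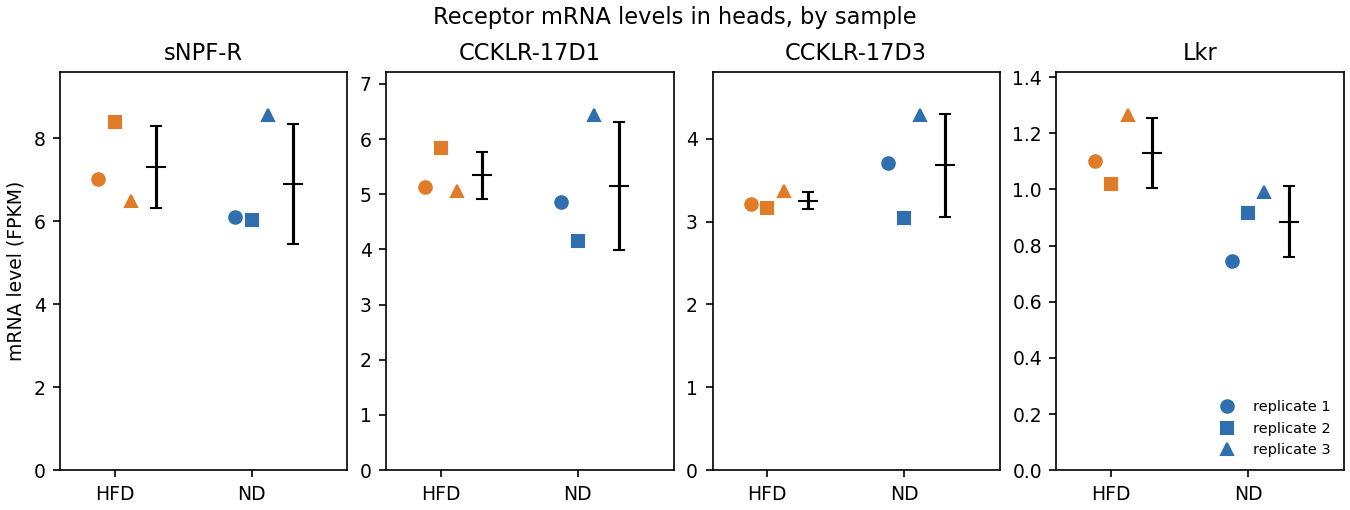
mRNA level in FPKM of the 4 receptor genes in HFD samples (orange) and ND samples (blue), with an axis of its own from 0 for each gene; circle, square and triangle are replicates 1, 2 and 3, and the black bar is the mean with its SD (n = 3). Lkr is the only one whose HFD samples, from 1.02 to 1.27 FPKM, all lie above its ND samples, from 0.746 to 0.991 FPKM.

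The question asked of these values was whether the diet shifted the mRNA of any receptor. Of the 4 receptors, 0 changed at an adjusted p under 0.05. All 4 passed the filter on low values and were tested in a fit over 8362 genes on log2(FPKM + 1), with limma and Benjamini-Hochberg adjustment, where 0.0478% of the genes tested were called. At an unadjusted p under 0.05 the count was also 0 of 4, where 6.71% of all genes tested passed. Without ND replicate 3 it was again 0 of 4, beside 12.5% of all genes tested. The diets did not overlap in 1 of the 4 receptors and in 12.6% of all genes tested.

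On the log2(FPKM + 1) scale, which understates the change of low genes such as Lkr, Lkr had a difference (HFD minus ND) of 0.18, with a standard error of 0.14 and a 95% interval from -0.17 to 0.53 (limma, adjusted p = 0.944). An exact permutation test of the mean levels returned p = 0.1, the smallest that 3 samples against 3 can reach. The separation of the Lkr samples depended on the scaling. It held under median-ratio scaling, but under quantile normalization ND replicate 3 (1.28) lay above the 3 HFD samples (1.02, 1.11 and 1.16, as rescaled FPKM). When the samples were scaled to an equal sum of neuron markers, HFD replicate 2 (0.884) fell below ND replicate 2 (1.02).

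For the remaining receptors the limma intervals also contained 0. The log2 difference was 0.081 for sNPF-R, with an interval from -0.31 to 0.48 (adjusted p = 0.998, exact permutation p = 0.6). For CCKLR-17D1 it was 0.060, with an interval from -0.32 to 0.44 (limma, adjusted p = 0.998, exact permutation p = 0.8). For CCKLR-17D3 it was -0.13, with an interval from -0.45 to 0.19 (limma, adjusted p = 0.961, exact permutation p = 0.4). An interval that contains 0 leaves differences of either sign possible up to its bounds. Without ND replicate 3, the log2 difference was 0.23 for sNPF-R, 0.21 for CCKLR-17D1, -0.037 for CCKLR-17D3 and 0.22 for Lkr. Without HFD replicate 2 it was -0.011 for sNPF-R, a change of sign, and 0.21 for Lkr. Without ND replicate 2 it was -0.058 for CCKLR-17D1, also a change of sign.

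**Figure D2:**
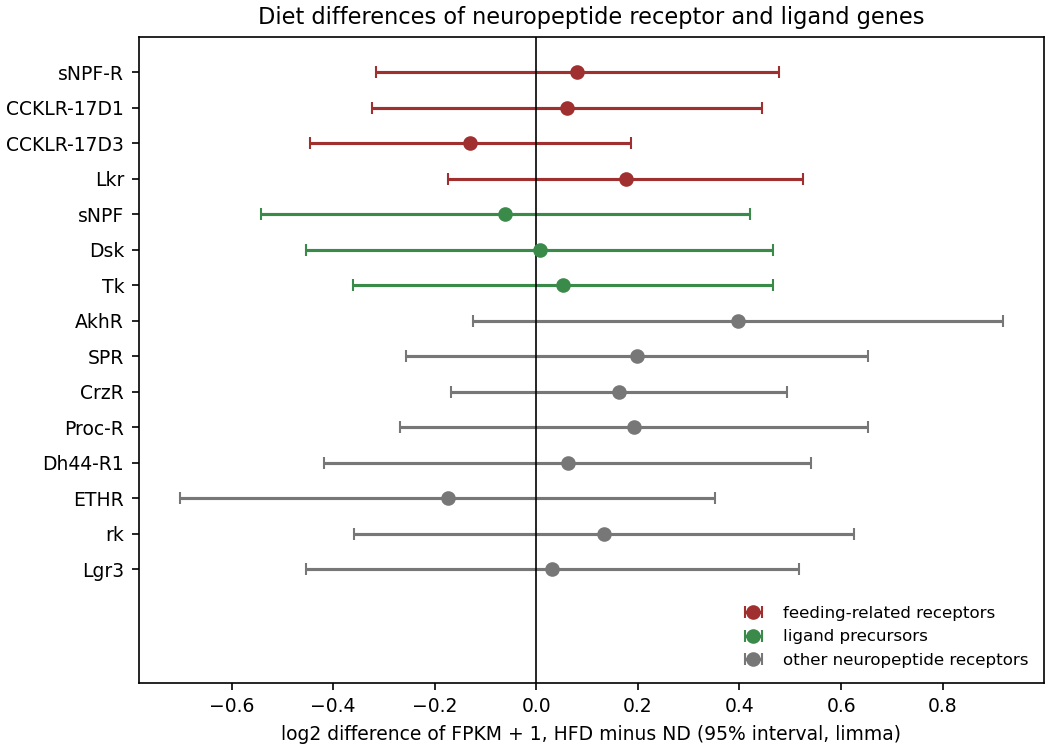
Difference of log2(FPKM + 1), HFD minus ND, with its 95% interval from limma, for the 4 receptors (red), the ligand precursor genes sNPF, Dsk and Tk (green) and other neuropeptide receptors (gray). Every interval crosses 0; that of Lkr runs from -0.17 to 0.53 and that of CCKLR-17D3 from -0.45 to 0.19.

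The order of the 4 levels was sNPF-R, CCKLR-17D1, CCKLR-17D3 and Lkr in each of the 6 samples. The range of sNPF-R, from 6.02 to 8.56 FPKM, overlapped that of CCKLR-17D1, from 4.16 to 6.44 FPKM, but within a sample sNPF-R was always higher, at 1.26 to 1.45 times the level of CCKLR-17D1. Lkr was set off from the others, with sNPF-R at 5.14 to 8.64 times its level. By mean level over the 6 samples, 29.9% of the genes tested lay below sNPF-R, 23.4% below CCKLR-17D1, 16.7% below CCKLR-17D3 and 4.60% below Lkr.

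A ratio between receptors within a sample does not depend on scaling of that sample by a single factor, though quantile normalization can change it. Such ratios were examined for the 6 pairs of receptors, a choice made after the data were seen. The diets did not overlap in 2 of the 6 pairs, beside 14.0% of all pairs of genes with values above 0 in all 6 samples. The 6 pairs share genes, so they are not independent. Both pairs without overlap include CCKLR-17D3, and 1 includes Lkr, whose own levels did not overlap. CCKLR-17D1 stood at 1.598, 1.84 and 1.505 times the level of CCKLR-17D3 in HFD samples, against 1.31, 1.37 and 1.501 times in ND samples. The lowest HFD ratio and the highest ND ratio were nearly equal. CCKLR-17D3 stood at 2.92, 3.10 and 2.66 times the level of Lkr in HFD samples, against 4.96, 3.31 and 4.33 times in ND samples. Both differences had an exact two-sided permutation p of 0.1, the smallest possible, and an adjusted p of 0.3 over the 6 pairs. The other 4 pairs overlapped, with exact permutation p-values of 0.3 and 0.8.

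**Figure D3:**
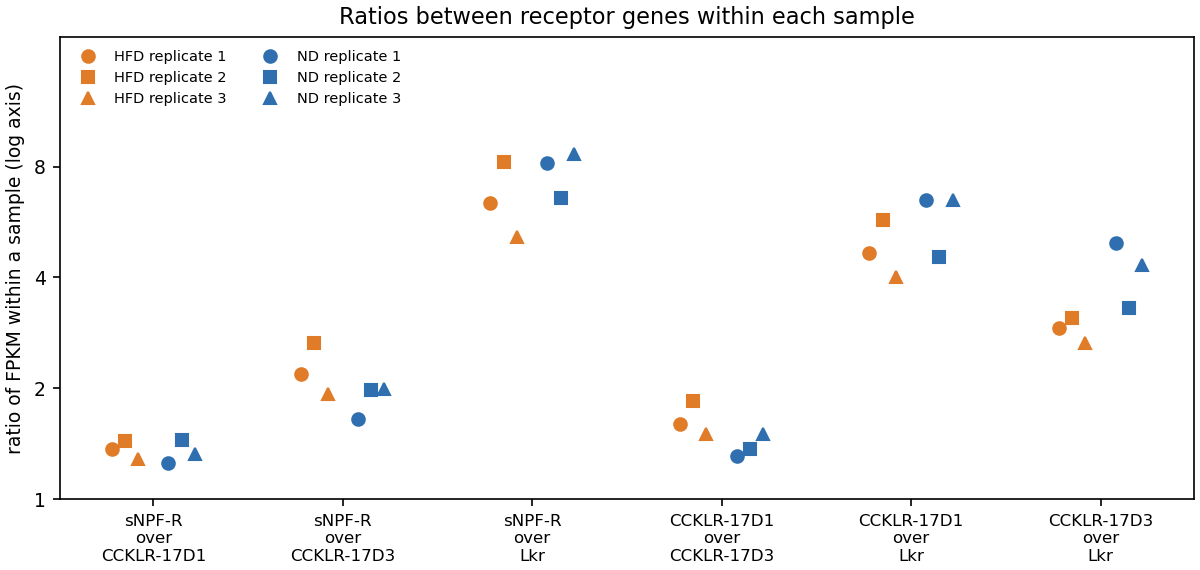
Ratio of FPKM between each pair of receptor genes within a sample, on a log axis, for HFD samples (orange, left in each pair) and ND samples (blue, right); circle, square and triangle are replicates 1, 2 and 3. The diets are apart for CCKLR-17D1 over CCKLR-17D3, where the nearest samples are at 1.505 and 1.501, and for CCKLR-17D3 over Lkr, where they are at 3.10 and 3.31.

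Across the 6 samples, 3 of the 4 receptors were highest in ND replicate 3, the library with the lowest midgut marker sum. Relative to the median of the 6 samples, ND replicate 3 was at 0.34 on the log2 scale for sNPF-R, 0.34 for CCKLR-17D1 and 0.38 for CCKLR-17D3, but at -0.021 for Lkr. Neuron markers, of which 10 of 14 listed had values and all 10 were above 0 in every sample, summed to 1031, 1259 and 1020 FPKM in HFD samples, against 994, 978 and 1315 FPKM in ND samples. Their sum was highest in ND replicate 3, at 0.36, and next in HFD replicate 2, at 0.30. This was not particular to neuron markers. The sums of photoreceptor markers (0.33) and muscle markers (0.26) were also highest in ND replicate 3, as was that of glia markers, at 1201, 1359 and 1221 FPKM in HFD samples, against 1136, 1095 and 1408 FPKM in ND samples. Taken singly, 6 of 10 neuron markers, 10 of 10 photoreceptor markers, 5 of 6 glia markers and 7 of 10 muscle markers were highest in ND replicate 3. The part of these marker levels in the receptor values was not tested. In bulk tissue, fewer cells of a type and less RNA per cell cannot be told apart.

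Per 1000 FPKM of summed neuron markers, sNPF-R was at 6.81, 6.67 and 6.37 FPKM in HFD samples, against 6.14, 6.16 and 6.51 FPKM in ND samples. For sNPF-R, HFD replicate 2 and ND replicate 3 no longer stood out, and the diets still overlapped. CCKLR-17D3 was at 3.12, 2.51 and 3.30 FPKM on this scale in HFD samples, against 3.73, 3.11 and 3.26 FPKM in ND samples, with HFD replicate 2 now the lowest of the 6. With this scaling, added after the data were seen, the log2 difference was 0.067 for sNPF-R, 0.048 for CCKLR-17D1, -0.14 for CCKLR-17D3 and 0.17 for Lkr, and the limma adjusted p was 0.999 for all 4.

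**Figure D4:**
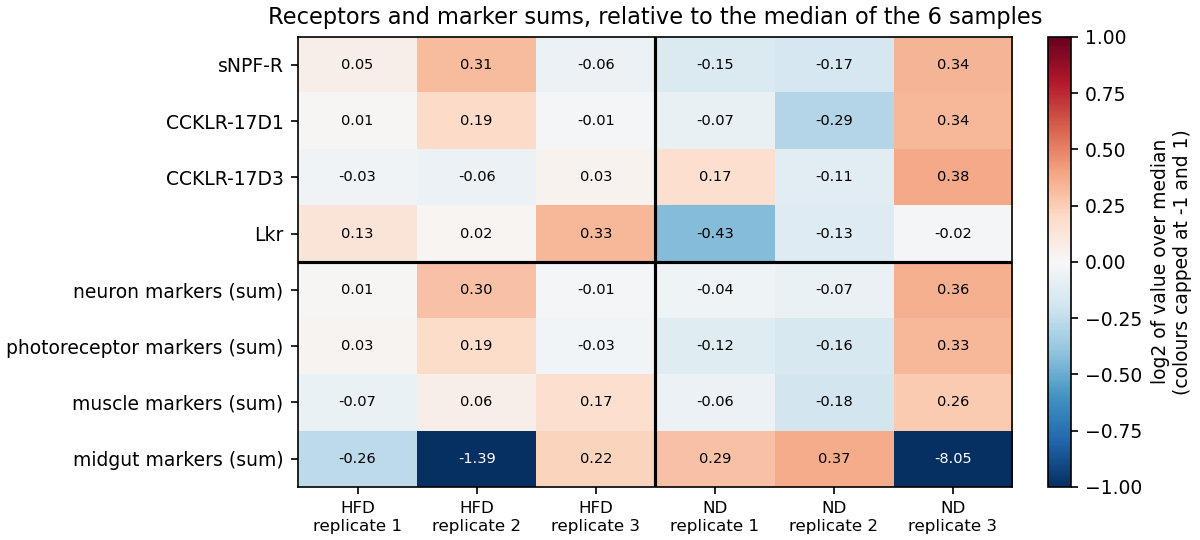
Log2 of each value over the median of the 6 samples, for the 4 receptors (FPKM) and for summed marker lists, with HFD samples left of ND samples; red is above and blue below the median, with colors capped at -1 and 1. In ND replicate 3, sNPF-R (0.34), CCKLR-17D1 (0.34), CCKLR-17D3 (0.38) and neuron markers (0.36) are raised while midgut markers are at -8.05; Lkr is at -0.021.

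The tested genes whose pattern over the 6 samples was most like the mean of the 4 standardized receptor levels were kuz, which encodes a metalloprotease of the Notch pathway, Zasp66, a gene of the muscle Z-disc, and Arr2, an arrestin of photoreceptors. Arr2 was at 4854, 5309 and 4932 FPKM in HFD samples, against 4357, 4025 and 5892 FPKM in ND samples. As in sNPF-R, its highest values were in ND replicate 3 and HFD replicate 2. Pearson's r was 0.996 for kuz, 0.995 for Zasp66 and 0.995 for Arr2, as a description over 6 samples that share their library differences. The receptors were less alike among themselves. Lkr had an r of 0.24 with sNPF-R, 0.22 with CCKLR-17D1 and -0.23 with CCKLR-17D3. Among the others, r ran from 0.40 (sNPF-R with CCKLR-17D3) to 0.93 (sNPF-R with CCKLR-17D1).

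Ligand precursors were more abundant than the receptors. Of the 8 genes listed, sNPF, Dsk and Tk had values. At a limma p under 0.05, 0 of 3 passed adjusted or unadjusted, beside 0.0478% and 6.71% of all genes tested. sNPF was at 54.3, 65.6 and 41.5 FPKM in HFD samples, against 52.9, 48.7 and 65.1 FPKM in ND samples, which is 6.38 to 8.66 times the level of sNPF-R in the same sample. Dsk was at 43.6, 45.1 and 38.4 FPKM in HFD samples, against 32.2, 43.8 and 52.7 FPKM in ND samples, or 6.63 to 10.5 times the level of CCKLR-17D1 and 8.69 to 14.4 times that of CCKLR-17D3. The tachykinin precursor Tk was at 52.3, 54.2 and 36.7 FPKM in HFD samples, against 48.3, 46.7 and 41.1 FPKM in ND samples. In all 3 genes the diets overlapped, while they did not in 12.6% of all genes tested. The log2 difference was -0.061 for sNPF, 0.0063 for Dsk and 0.053 for Tk (limma, adjusted p = 0.998 for each). The sign for Dsk turned under quantile normalization (-0.0099).

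Other neuropeptide receptors gave a frame for these levels. Of 29 listed genes 8 had values, and among the 12 receptors sNPF-R ranked 5, CCKLR-17D1 ranked 6, CCKLR-17D3 ranked 9 and Lkr ranked 11 by mean level. Neighbors in this order were not always separable, since CCKLR-17D1 was above Dh44-R1, a diuretic hormone receptor, in 2 of 6 samples, and Lkr was above Lgr3, a relaxin-like receptor, in 3 of 6. Of the 8 genes, 0 passed an adjusted or an unadjusted p under 0.05 (limma), beside 0.0478% and 6.71% of all genes tested. The diets overlapped in all 8, while they did not in 12.6% of all genes tested. The unadjusted count depended on ND replicate 3 and on the scaling. Without that library 4 of the 8 genes were higher in HFD-fed flies at an unadjusted p under 0.05, beside 12.5% of all genes tested. These were AkhR, CrzR, Proc-R and SPR, the last pair named after their values were seen, and 0 of 8 passed the adjusted p. With all 6 samples, the median log2 difference was 0.071 for the 4 receptors described and -0.027 for all genes tested. It was 0.15 for these 8 genes. The smallest unadjusted p among them was that of AkhR, the adipokinetic hormone receptor, at 40.1 ± 4.07 FPKM in HFD-fed flies and 30.9 ± 8.69 FPKM in ND-fed flies (SD, n = 3 each; log2 difference 0.40, limma adjusted p = 0.857). Next was CrzR, the corazonin receptor, at 10.7 ± 1.02 FPKM for HFD and 9.54 ± 1.57 FPKM for ND (log2 difference 0.16, limma adjusted p = 0.944). With 1 sample left out, the log2 difference of AkhR was lowest without ND replicate 1 (0.19) and that of CrzR without ND replicate 2 (0.078), and both were highest without ND replicate 3 (0.59 for AkhR and 0.28 for CrzR). Fat body markers (8 of 12 listed had values, all 8 above 0 in every sample) were the only marker list whose sums did not overlap between diets, at 35113 to 38776 FPKM in HFD samples, against 25720 to 33520 FPKM in ND samples. The yolk protein genes Yp1, Yp2 and Yp3 made up 99.3%, 99.1% and 99.2% of these sums in HFD samples, against 98.2%, 97.7% and 98.4% in ND samples. The higher HFD sums thus describe the yolk protein genes, not the list as a whole. The share of the other fat body markers was lower in every HFD sample than in any ND sample. Their summed level was also lower in every HFD sample, opposite to the yolk protein genes. The part of fat body RNA, or of the yolk protein genes alone, in the Lkr and AkhR values was not tested.

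Genes of G protein signaling, through which these receptors act, gave no call either. Of 25 listed genes 19 had values, and the median log2 difference was -0.0018. At a limma p under 0.05, 0 of 19 passed adjusted or unadjusted, beside 0.0478% and 6.71% of all genes tested. The listed alpha subunits of G proteins (Galphaq, Galphas, Galphai, Galphao and Galphaf) had no values, so they were not assessed. Plc21C, a phospholipase C, was at 34.1 ± 2.94 FPKM in HFD-fed flies and 37.8 ± 4.68 FPKM in ND-fed flies (SD, n = 3 each; limma, log2 difference -0.14, adjusted p = 0.944). Gprk1, a kinase of G protein-coupled receptors, was at 30.9 ± 1.68 FPKM for HFD and 32.8 ± 0.492 FPKM for ND (limma, log2 difference -0.083, adjusted p = 0.945). When 1 sample was left out, the log2 difference ran from -0.21 (without HFD replicate 2) to -0.045 (without ND replicate 3) for Plc21C and from -0.12 (without HFD replicate 2) to -0.049 (without HFD replicate 3) for Gprk1.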

How the data were processed

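The authors isolated poly(A) RNA, sequenced it on Illumina HiSeq instruments, mapped reads to the fly genome (HISAT is named in the submitters' processing notes), kept unique reads and deposited FPKM values per gene for each sample. The deposited design text calls the unit RPKM. Genome build, annotation and counting tool are not given in the sources used here. Of 12138 rows per sample, 216 repeated an identifier, and the first row of each was kept. Groups and replicate numbers came from the sample titles, and whether replicates were separate cultures beyond separate lots of flies is not stated, so p-values measure the spread between these samples.

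The diet difference was fitted by limma 3.58.1 (R 4.3.3; lmFit, then eBayes with a mean-variance trend) to log2(FPKM + 1). Genes averaging under 0.5 FPKM were left out, which left 8362. The mean levels of each receptor were tested by exact two-sided permutation, with 20 assignments of the samples. Depth was estimated from 1-fragment steps of low values of genes with a single annotated transcript in BDGP6. Whole fragments (tolerance 0.15) were reached by 62.5% to 70.0% of low values, where 30% would be by chance. Depths are thus estimates, no count test was made, and counting errors cover counting only. The limma fit and the depth estimate were tested on simulated data. For limma these values were drawn independently, without the library differences seen here, and with changes larger than those of the receptors. They thus do not show how the fit performs on the present data. Tables and figures used Python 3.11.15, pandas 2.3.3 and matplotlib 3.10.9.

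Genes named are the 4 receptors, the ligand precursors with values, the 2 genes with the smallest p of each further list, and the 3 genes nearest in pattern. Members and lists were chosen with earlier results of these data known. The alternatives were another pseudocount, other filters, median-ratio, quantile and neuron-marker scaling, limma without trend or moderation, a replicate block, summed rows, and samples left out. Whether the sulfakinin receptor genes share reads was not examined, and no sequences were used here.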

Additional observations from a re-analysis of the deposited data

How the results depend on the processing

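The count of called genes (adjusted p under 0.05, limma) was 0 in the receptors and in each of the 3 further lists under all 17 alternatives. Between 0.0119% and 0.143% of all genes tested were called under these alternatives. With so few calls, a count of 0 was likely for lists this small. Lkr stayed positive in each of its 16 alternatives, from 0.12 to 0.32; the filter at 2 FPKM removes it. CCKLR-17D3 stayed negative in 17, from -0.23 to -0.023. The filters, the trend and variance settings, the replicate block and summed rows cannot change these estimates. Their agreement in sign was thus fixed in advance, and only the other alternatives could have turned it. When 1 sample was left out, the log2 difference ran from -0.011 to 0.23 for sNPF-R, -0.058 to 0.21 for CCKLR-17D1, -0.21 to 0.11 for sNPF, -0.18 to 0.17 for Dsk, -0.047 to 0.23 for Tk, -0.055 to 0.22 for kuz, -0.021 to 0.24 for Zasp66 and -0.011 to 0.26 for Arr2, so their signs rest on single samples. Dsk was also negative under quantile normalization (-0.0099) and neuron-marker scaling (-0.010), and Tk with ND replicate 3 and HFD replicate 2 both left out (-0.12). With those 2 samples left out the log2 difference was 0.13 for sNPF-R, 0.15 for CCKLR-17D1, -0.023 for CCKLR-17D3 and 0.25 for Lkr, with the smallest limma adjusted p at 0.637.

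Deviations from the diet means correlated at 0.31, -0.51 and -0.36 between same-numbered samples. The highest correlation was between HFD replicate 2 and ND replicate 3, at 0.55. Since the values follow these outlying libraries, they cannot show whether same-numbered samples were handled together. A replicate block pairs an HFD with an ND sample, so it cannot change the log2 differences. These stay at 0.081 for sNPF-R, 0.060 for CCKLR-17D1, -0.13 for CCKLR-17D3 and 0.18 for Lkr. The block gave a limma adjusted p of 0.999 for each, and called 1 gene in all, against 4 without the block. That total was also 1 with unmoderated variance, 7 with median-ratio scaling, 1 to 5 when 1 sample was left out and 12 with ND replicate 3 and HFD replicate 2 both left out. At an unadjusted p under 0.05 it was 561, against 369 with neuron-marker scaling, 1044 without ND replicate 3 and 1039 without both samples. Depth limits Lkr most, at an estimated 15.96 fragments in HFD replicate 2.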
